A study of Mus musculus with 8 samples.

Results

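The genes described here encode the enzymes and transporters of glycolysis, lactate production and the pentose phosphate pathway, in mouse dendritic cells derived from bone marrow, with and without lipopolysaccharide (LPS), a bacterial cell wall product sensed through Toll-like receptor 4. The members are a list of 31 genes named by pathway and not by their values. All probes matched to those genes by transcript accession were taken, while 28172 of 55681 probes outside the controls matched no gene. The members had 47 of the 27509 probes that could be matched to a gene, and 31 of 20887 matched genes. All 31 passed the filter on dim probes, among 12706 genes tested, and each was well above background on all 8 arrays. The LPS group consisted of 4 samples of cells collected on day 7, after overnight exposure of immature dendritic cells to LPS at 50 ng/ml. The immature group consisted of 4 samples collected on day 6, after 6 days in medium with IL-4 and with 10 ng/ml of GM-CSF. The labels trace both groups to bone marrow progenitors or monocytes of C57BL/6 females, and both had the same GM-CSF and IL-4 culture before LPS. There was no group of day 7 cells lacking LPS, so LPS and the further night in culture cannot be told apart. The labels do not say whether replicates came from separate animals or cultures, so the p-values measure only the spread between these samples, which may be technical.

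Glycolysis splits glucose into pyruvate, which lactate dehydrogenase turns into lactate for export. The pentose phosphate pathway branches from it at glucose 6-phosphate: its oxidative steps make NADPH, and its non-oxidative steps interconvert sugar phosphates and supply ribose 5-phosphate for nucleotides. Dendritic cells are known to increase glycolytic flux soon after Toll-like receptor stimulation, which enzyme activity and glucose uptake can bring about as well as transcription.

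Levels are log2 processed signals relative to the 75th percentile of each array, so a level of 0 lies at that percentile. They were compared between LPS and immature arrays within a probe, and not between genes. The 75th percentile itself was 392 to 421 signal units on LPS arrays and 450 to 491 on immature arrays. Of probes, 46.5% to 47.5% on LPS arrays and 46.7% to 50.4% on immature arrays were well above background. All arrays sat on 1 slide with 1 scan, LPS arrays in row 2 and immature arrays in row 1, so slide row and group cannot be told apart. Immature replicate 3 stood apart: it was the array farthest from its group in 57.5% of all tested genes and in 17 of the 31 members. Of 9 dendritic cell markers, 4 were higher on LPS arrays, 3 lower and 2 did not pass, and all 9 were well above background in at least 1 group. All 9 measured neutrophil and granule markers and all 9 tested cell cycle markers were lower on LPS arrays. The summed level of the neutrophil markers was 7.95 to 8.83 on LPS arrays and 9.54 to 9.79 on immature arrays, and that of the cell cycle markers 4.18 to 5.18 and 6.23 to 7.12. In bulk RNA, fewer cells of a type and less RNA per cell cannot be told apart, and the part of these markers in the results below was not tested.

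Of the 31 genes, 17 did not pass the test between LPS and immature cells, while in the pentose phosphate pathway 2 of 3 oxidative and 3 of 4 non-oxidative genes fell. With limma's moderated test adjusted by the Benjamini-Hochberg method over all genes, 5 of the 31 members rose (16.1%), against 31.4% of all tested genes. Another 9 fell (29%), against 24.7% of all genes. Together 14 of 31 changed (45.2%), against 56.1% of all tested genes. Without LPS replicate 1 or 2, or immature replicate 1 or 2, 3 members were called higher. With arrays weighted by their quality, which gave immature replicate 3 the lowest weight, 13 were (41.9%), and 39.7% of all tested genes were. The median log2 fold change was 0.03 over the members and 0.06 over all tested genes. Changes of at least 2-fold were found for 2 members in the upward direction, Pfkfb3 and Eno2 (6.45%, against 9.15% of all genes). There were also 2 downward, Slc2a3 and Rpia (6.45%, against 8.76%). The LPS arrays lay wholly above the immature arrays in 5 members and wholly below them in 8, where 30.1% and 22.3% of all tested genes did so.

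**Figure D1:**
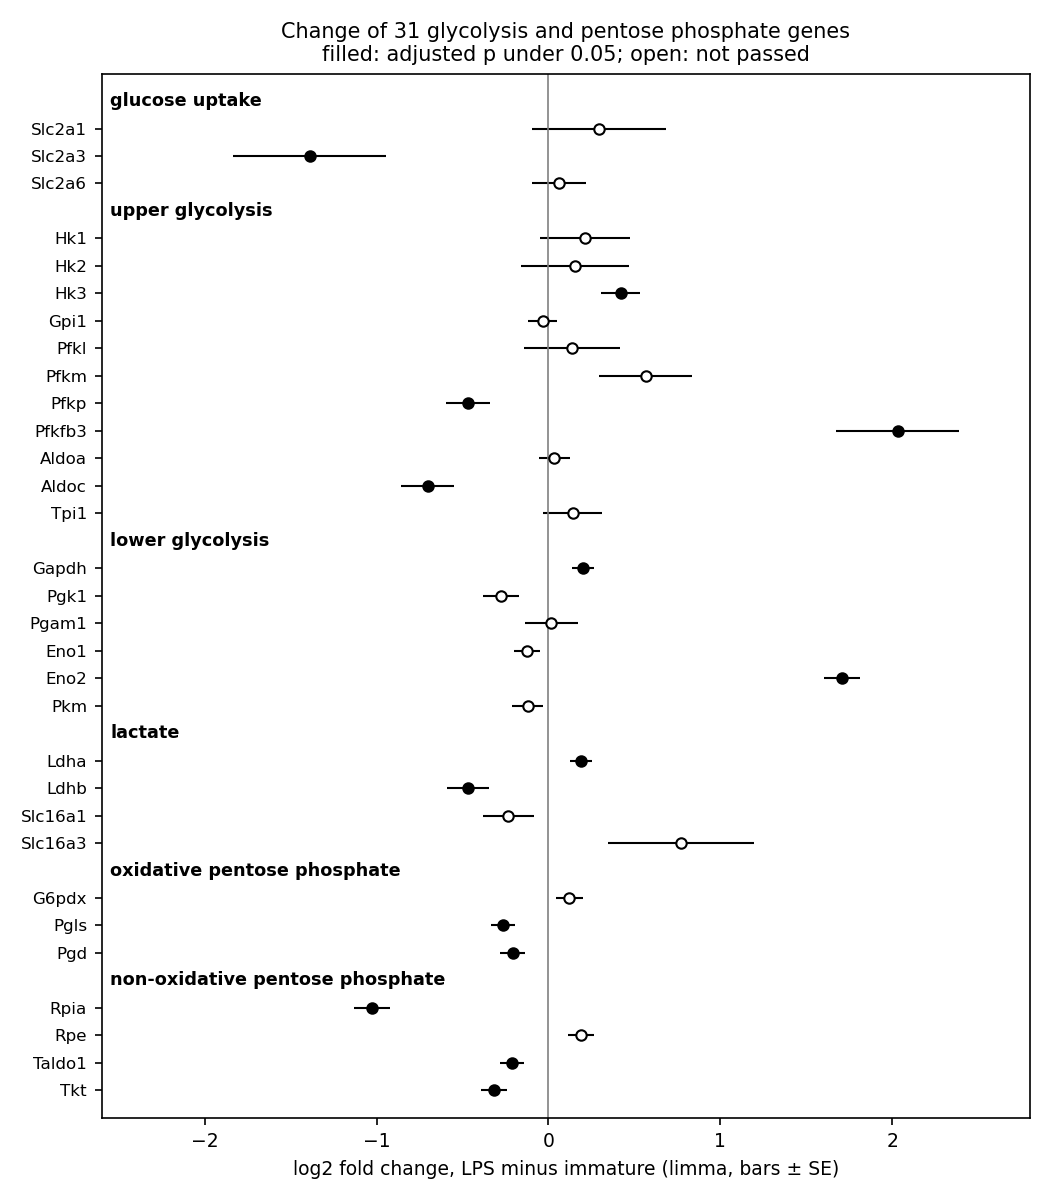
Log2 fold change of each member, LPS minus immature (horizontal axis), ordered by the step of the pathway it serves. Points are limma estimates and bars their standard errors, with 4 arrays in each group. Pfkfb3 at 2.03 and Eno2 at 1.71 lie farthest to the right, Slc2a3 at -1.39 and Rpia at -1.03 farthest to the left, and the small increases of Gapdh and Ldha turned to -0.01 and -0.02 when arrays were not scaled.

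Promoter sequences are shown for the members on which the results turn: Pfkfb3 and Eno2, which rose at least 2-fold, and Slc2a1 and Slc16a3, which varied most among immature arrays beside Slc2a3. The sequences are those of RefSeq on build GRCm38.p6, from 250 bases before to 50 after an annotated start, written 5′ to 3′ on the strand of the gene. Capitals mark ACGTG or GCGTG on either strand (CACGT and CACGC on the strand opposite), the core of the element bound by hypoxia-inducible factors, which overlaps the E-box CACGTG.
Slc2a1 chr4:119108495-119108794, plus strand: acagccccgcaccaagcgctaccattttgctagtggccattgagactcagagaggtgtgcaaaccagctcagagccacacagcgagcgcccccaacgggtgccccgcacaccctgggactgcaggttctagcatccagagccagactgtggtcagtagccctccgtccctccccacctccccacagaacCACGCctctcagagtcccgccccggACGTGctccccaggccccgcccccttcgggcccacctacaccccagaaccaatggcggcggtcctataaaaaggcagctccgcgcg
Slc16a3 chr11:120948817-120949116, plus strand: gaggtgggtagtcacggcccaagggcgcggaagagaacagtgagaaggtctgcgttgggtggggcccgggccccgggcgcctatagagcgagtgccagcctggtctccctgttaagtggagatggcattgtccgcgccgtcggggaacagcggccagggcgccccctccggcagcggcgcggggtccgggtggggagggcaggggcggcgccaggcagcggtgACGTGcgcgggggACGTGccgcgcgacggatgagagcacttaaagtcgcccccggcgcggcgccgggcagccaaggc
Pfkfb3 chr2:11502041-11502340, minus strand: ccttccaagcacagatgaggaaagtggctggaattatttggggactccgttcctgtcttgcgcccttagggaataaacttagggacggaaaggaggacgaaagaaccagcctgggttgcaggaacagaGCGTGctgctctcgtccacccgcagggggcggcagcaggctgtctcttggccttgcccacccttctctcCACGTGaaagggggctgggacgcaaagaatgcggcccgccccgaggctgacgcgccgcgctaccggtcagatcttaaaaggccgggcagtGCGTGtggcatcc
Pfkfb3 chr2:11553880-11554179, minus strand: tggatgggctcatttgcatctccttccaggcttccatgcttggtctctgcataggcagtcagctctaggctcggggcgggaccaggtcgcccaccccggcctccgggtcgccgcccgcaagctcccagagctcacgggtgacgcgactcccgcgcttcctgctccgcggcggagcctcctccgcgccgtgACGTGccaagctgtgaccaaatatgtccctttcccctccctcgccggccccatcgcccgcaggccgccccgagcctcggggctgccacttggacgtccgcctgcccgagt
Eno2 chr6:124769624-124769923, minus strand: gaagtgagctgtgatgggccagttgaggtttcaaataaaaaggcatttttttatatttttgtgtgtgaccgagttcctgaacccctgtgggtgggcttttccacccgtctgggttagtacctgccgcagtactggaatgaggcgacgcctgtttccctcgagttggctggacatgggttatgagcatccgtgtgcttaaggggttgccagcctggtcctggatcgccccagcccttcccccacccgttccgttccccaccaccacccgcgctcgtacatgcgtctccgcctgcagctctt
The letters occur at 2 places in the Slc2a1 window, 2 in that of Slc16a3, 3 and 1 in the windows of Pfkfb3 and 0 in that of Eno2. Over the 30 members with an entry, 34 of 43 windows held them (79.1%), against 59.7% of windows of all tested genes and 43.8% of all windows of that length. The median window held 20 CpG dinucleotides for the members, 19 for all tested genes and 7 for all genes, and the letters searched contain CpG. A match of letters is a description of the window and not a binding site.

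Glucose enters the cell through facilitative transporters. Slc2a3, which encodes the high-affinity transporter GLUT3, read 0.09, -0.01, 0.62 and 0.13 on LPS arrays 1 to 4, against 0.77, 0.73, 2.68 and 2.21 on immature arrays 1 to 4. Every LPS array lay below every immature array, and immature replicates 3 and 4 were far above the other two. Slc2a3 fell by 1.39 ± 0.44 on the log2 scale (SE, 4 arrays in each group; limma adjusted p = 0.0271), 2.62-fold lower. The call was lost when LPS replicate 1, 2 or 4 or immature replicate 4 was left out, with the highest adjusted p of 0.0718 without immature replicate 4. Slc2a1, which encodes the widespread transporter GLUT1, read 5.23, 5.39, 5.68 and 5.77 on LPS arrays, against 4.43, 4.51, 6.10 and 5.86 on immature arrays. All 4 LPS values fell in the gap between the lower and the higher pair of immature arrays, and the log2 fold change of 0.29 ± 0.39 did not pass (limma adjusted p = 0.547). Slc2a6, which encodes a transporter of lysosomal membranes, read 6.86, 6.94, 6.51 and 6.54 on LPS arrays and 6.69, 6.84, 6.27 and 6.81 on immature arrays. The groups overlapped, with a log2 fold change of 0.06 ± 0.16 (limma adjusted p = 0.771). Of 2 other glucose transporters tested, both rose, Slc2a8 by 0.56 ± 0.17 (limma adjusted p = 0.021) and Slc2a9 by 0.51 ± 0.17 (limma adjusted p = 0.0302).

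The hexokinases trap glucose as glucose 6-phosphate. Hk3, an isozyme of myeloid cells, read 3.52, 3.55, 3.78 and 3.84 on LPS arrays, against 3.10, 3.11, 3.41 and 3.37 on immature arrays. Every LPS array lay above every immature array, and Hk3 rose by 0.42 ± 0.11 (limma adjusted p = 0.013), a call that was lost with 3 other scalings. Hk2, the inducible isozyme, read 3.29, 3.53, 3.39 and 3.89 on LPS arrays and 2.79, 2.84, 4.20 and 3.65 on immature arrays. Hk1, the constitutive isozyme, read 4.86, 4.72, 5.09 and 4.96 on LPS arrays and 4.18, 4.20, 5.19 and 5.20 on immature arrays. For both genes immature replicates 1 and 2 lay below all LPS arrays, while immature replicate 3 lay above them. The log2 fold changes of 0.15 ± 0.31 for Hk2 and 0.21 ± 0.26 for Hk1 did not pass (limma adjusted p = 0.701 and 0.513). Gpi1, the isomerase that makes fructose 6-phosphate, differed by -0.03 ± 0.08 (limma adjusted p = 0.753), with levels of 8.11 to 8.33 on LPS arrays and 8.13 to 8.36 on immature arrays.

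Phosphofructokinase commits sugar to glycolysis, and fructose 2,6-bisphosphate, made by the PFKFB enzymes, activates it. Pfkfb3, whose enzyme strongly favours synthesis of this activator, read 5.17, 5.24, 5.18 and 5.44 on LPS arrays, against 2.56, 2.53, 4.19 and 3.64 on immature arrays. The processed signals were 14204 to 18303 units on LPS arrays and 2754 to 8332 units on immature arrays, so the groups did not overlap despite the wide immature spread. Pfkfb3 rose by 2.03 ± 0.36 on the log2 scale (limma adjusted p = 0.00162), 4.09-fold. A dimmer probe of the gene rose by 2.26 ± 0.44 (limma over all probes, adjusted p = 0.00328). Among the other 4 genes listed as making or breaking this activator, 1 rose, Pfkfb1 by 0.49 ± 0.15 (limma adjusted p = 0.0218), and 3 did not pass.

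The 3 phosphofructokinase genes encode subunits named for liver, muscle and platelet. Pfkp, the platelet type, read 3.29, 3.26, 3.38 and 3.03 on LPS arrays, against 3.78, 3.83, 3.38 and 3.84 on immature arrays. Immature replicate 3 was as low as the highest LPS array, and the other immature arrays lay above all LPS arrays. Pfkp fell by 0.47 ± 0.13 (limma adjusted p = 0.014), and its second probe fell by 0.95 ± 0.20 (limma over all probes, adjusted p = 0.00416). Pfkl, the liver type, read 2.81, 2.82, 2.82 and 2.99 on LPS arrays and 2.20, 2.15, 3.24 and 3.31 on immature arrays. Pfkm, the muscle type, read 0.53, 0.68, 0.46 and 0.55 on LPS arrays and -0.53, -0.54, 0.63 and 0.40 on immature arrays. In both genes the LPS arrays were tightly grouped and the immature arrays were split, with replicates 1 and 2 low. Neither passed, with log2 fold changes of 0.13 ± 0.28 for Pfkl and 0.57 ± 0.27 for Pfkm (limma adjusted p = 0.706 and 0.106). Without immature replicate 3, Pfkm was called higher at 0.78 (limma adjusted p = 0.0206).

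Aldolase cleaves fructose 1,6-bisphosphate into triose phosphates. Aldoc, the isozyme best known from brain, read 5.89, 5.99, 6.09 and 5.63 on LPS arrays, against 6.44, 6.31, 6.89 and 6.75 on immature arrays. Every LPS array lay below every immature array, and Aldoc fell by 0.70 ± 0.15 (limma adjusted p = 0.00482), 1.63-fold lower. Aldoa, the isozyme of muscle and most other tissues, differed by 0.03 ± 0.09 (limma adjusted p = 0.775), with levels of 9.08 to 9.27 on LPS arrays and 9.02 to 9.29 on immature arrays. Tpi1, which interconverts the triose phosphates, read 6.86, 6.97, 6.99 and 6.93 on LPS arrays and 6.49, 6.49, 6.94 and 7.27 on immature arrays. Its log2 fold change of 0.14 ± 0.17 did not pass (limma adjusted p = 0.516), and its second probe gave 0.16 ± 0.21.

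The lower steps, which yield ATP and pyruvate, differed little apart from Eno2. Eno2, the enolase isozyme best known from neurons, read -0.38, -0.55, -0.49 and -0.32 on LPS arrays, against -2.22, -2.20, -1.88 and -2.26 on immature arrays. Both groups were tight and did not overlap, with signals of 271 to 337 units on LPS arrays and 93.7 to 125 units on immature arrays. Eno2 rose by 1.71 ± 0.11 (limma adjusted p = 6.84e-06), 3.26-fold. Eno1, the widespread enolase, differed by -0.12 ± 0.08 (limma adjusted p = 0.198), with levels of 7.72 to 7.89 on LPS arrays and 7.83 to 8.05 on immature arrays. Gapdh, the dehydrogenase often used as a control gene, read 9.09, 9.10, 9.13 and 9.03 on LPS arrays, against 8.84, 8.87, 8.90 and 8.94 on immature arrays. On this probe the groups did not overlap and Gapdh rose by 0.20 ± 0.06 (limma adjusted p = 0.0256), but the value was -0.01 without scaling and the other 6 probes of the gene, at -0.10 to 0.08, did not pass. The call was also lost without LPS replicate 1, 2 or 3 or immature replicate 1 or 2 (limma adjusted p = 0.0624 to 0.0728). Pgk1, which makes the first ATP of the pathway, read 8.01, 8.08, 8.19 and 7.93 on LPS arrays and 8.15, 8.21, 8.48 and 8.47 on immature arrays. The groups overlapped slightly, and the log2 fold change of -0.28 ± 0.10 lay just outside the threshold (limma adjusted p = 0.05003). Pgk1 was called lower in 10 of 20 alternatives, among them those without LPS replicate 3 or immature replicate 1 (limma adjusted p = 0.0465 and 0.033), and its adjusted p ranged from 0.00174 to 0.126. Pgam1, the phosphoglycerate mutase, differed by 0.02 ± 0.16, and its LPS levels of 7.46 to 7.62 all lay between the lower and the higher pair of immature arrays (7.22 and 7.25, 7.73 and 7.88). Pkm, pyruvate kinase of muscle and many other tissues, differed by -0.12 ± 0.09 (limma adjusted p = 0.285), with levels of 6.62 to 6.82 on LPS arrays and 6.71 to 7.01 on immature arrays. It had 1 matched probe, which was not assigned to a splice form.

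Lactate dehydrogenase and the monocarboxylate transporters make and export lactate. Ldha, the subunit favouring lactate formation, read 8.54, 8.49, 8.53 and 8.46 on LPS arrays, against 8.25, 8.31, 8.32 and 8.37 on immature arrays. The groups did not overlap on this probe and Ldha rose by 0.19 ± 0.06 (limma adjusted p = 0.0317), but the value was -0.02 without scaling, and its other 2 probes, at 0.02 and 0.01, did not pass. Leaving out LPS replicate 1, 2 or 3 or immature replicate 1 or 2 also ended the call of Ldha (limma adjusted p = 0.0639 to 0.0894). Ldhb, the subunit of oxidative tissues, read 1.40, 1.55, 1.32 and 1.09 on LPS arrays, against 1.72, 1.81, 2.04 and 1.65 on immature arrays. Every LPS array lay below every immature array, and Ldhb fell by 0.47 ± 0.12 (limma adjusted p = 0.0116). Slc16a3, which encodes the lactate exporter MCT4, read 6.45, 6.54, 6.61 and 6.67 on LPS arrays and 4.87, 5.01, 6.64 and 6.66 on immature arrays. Immature replicates 3 and 4 were as high as the LPS arrays and replicates 1 and 2 far lower, so the log2 fold change of 0.77 ± 0.43 did not pass (limma adjusted p = 0.155). A second probe gave 0.78 and the same split of the immature arrays, at 4.86 and 4.94 in replicates 1 and 2 and 6.61 and 6.60 in replicates 3 and 4. Slc16a1, which encodes MCT1, was dim and differed by -0.23 ± 0.15 (limma adjusted p = 0.218), with levels of -3.62 to -3.18 on LPS arrays and -3.57 to -3.02 on immature arrays. Without immature replicate 2 it was called lower, at -0.36 (limma adjusted p = 0.0431).

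In the oxidative branch of the pentose phosphate pathway, 2 of 3 genes fell, where 24.7% of all tested genes did. G6pdx, the X-linked glucose 6-phosphate dehydrogenase that opens the branch, differed by 0.12 ± 0.08 (limma adjusted p = 0.216), with levels of 5.33 to 5.50 on LPS arrays and 5.18 to 5.39 on immature arrays. Pgls, the lactonase of the next step, read 2.77, 2.73, 2.77 and 2.62 on LPS arrays, against 2.98, 2.98, 3.06 and 2.92 on immature arrays. Pgd, the last enzyme of this branch, which makes NADPH and ribulose 5-phosphate, read 5.84, 5.92, 5.88 and 5.95 on LPS arrays, against 6.05, 6.24, 6.07 and 6.07 on immature arrays. Neither gene overlapped between groups, and both decreases were small. Pgls fell by 0.26 ± 0.07 (limma adjusted p = 0.0123) and Pgd fell by 0.21 ± 0.07 (limma adjusted p = 0.0387). The call of Pgd was lost in 10 of 20 alternatives. Among them were those without LPS replicate 1, 2 or 3 or immature replicate 1, 2 or 4 (limma adjusted p = 0.0562 to 0.103).

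In the non-oxidative branch 3 of 4 genes fell, against the same 24.7% of all tested genes. Rpia, the isomerase that makes ribose 5-phosphate, read 0.60, 0.72, 0.71 and 0.94 on LPS arrays, against 1.81, 1.92, 1.56 and 1.79 on immature arrays. The groups were widely separated, and Rpia fell by 1.03 ± 0.10 (limma adjusted p = 9.28e-05), 2.04-fold lower. Rpe, the epimerase acting on the same substrate, read 2.08, 2.08, 1.87 and 1.99 on LPS arrays and 1.86, 1.79, 1.74 and 1.87 on immature arrays. Its groups met at 1.87, the level of LPS replicate 3, and the log2 fold change of 0.19 ± 0.08 did not pass (limma adjusted p = 0.0614), but did without LPS replicate 3, at 0.24 (limma adjusted p = 0.0348). Transketolase and transaldolase return pentose carbon to glycolysis. Tkt read 6.98, 6.98, 6.96 and 6.80 on LPS arrays, against 7.23, 7.33, 7.14 and 7.28 on immature arrays. Taldo1 read 7.57, 7.55, 7.70 and 7.59 on LPS arrays, against 7.79, 7.75, 7.88 and 7.82 on immature arrays. In both genes every LPS array lay below every immature array. Tkt fell by 0.32 ± 0.08 (limma adjusted p = 0.00787) and Taldo1 fell by 0.21 ± 0.07 (limma adjusted p = 0.0291). The call of Taldo1 was lost in 9 of 20 alternatives. Among them were those without LPS replicate 1, 2 or 4 or immature replicate 1 or 4 (limma adjusted p = 0.057 to 0.0788). The cell cycle markers, whose summed levels are given above, were lower in the same LPS samples, and their part in these decreases was not tested.

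The spread among immature arrays was wide for part of the pathway and narrower for the rest. The standard deviation over the 4 arrays ran from 0.04 to 0.28 in the LPS group. In the immature group it ran from 0.04 (Gapdh) to 1.00 (Slc2a3), on the brightest probe of each gene. On the other Gapdh probes the immature value was 0.09 to 0.15. Ldha gave 0.05 on its brightest probe and 0.17 and 0.21 on the others. The standard deviation was larger in the immature group for 25 of 31 members (80.6%), and for 61.4% of all tested genes. Of all members, 8 lay above the 90th percentile of the immature standard deviation over all tested genes and 7 above the 95th. These 8 were the transporters Slc2a3 (1.00), Slc16a3 (0.99) and Slc2a1 (0.88), the kinases Pfkfb3 (0.82), Hk2 (0.68), Pfkl (0.64) and Pfkm (0.61), and Hk1 (0.58). Their LPS standard deviations were 0.28, 0.10, 0.25, 0.13, 0.26, 0.09, 0.09 and 0.16 in the same order. All 8 serve uptake, hexose phosphorylation, the phosphofructokinase step or lactate export. Members of the same steps outside these 8 were Slc2a6 (0.26), Hk3 (0.16), Pfkp (0.22) and Slc16a1 (0.26). Tpi1 (0.38) and Pgam1 (0.33) came next after the 8. The pentose phosphate genes were tight, with a median immature standard deviation of 0.09 in the oxidative branch and 0.07 in the non-oxidative branch.

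**Figure D2:**
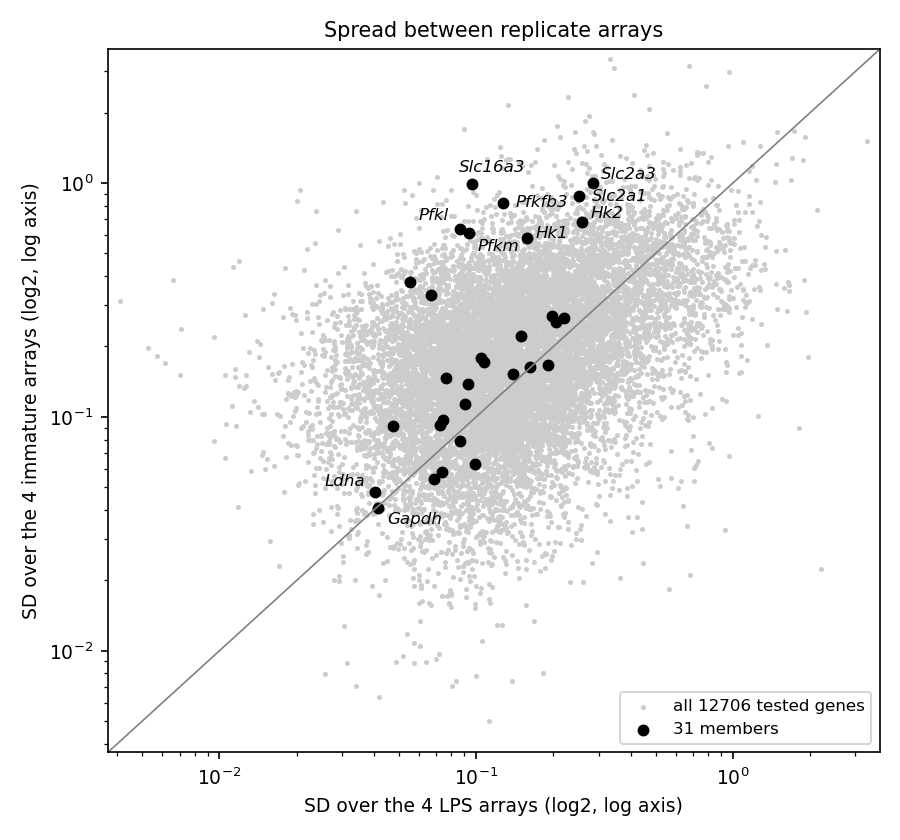
Standard deviation of the log2 level over the 4 LPS arrays (horizontal axis, log scale) and over the 4 immature arrays (vertical axis, log scale) for all 12706 tested genes (grey) and the 31 members (black), with the line of equality. Slc2a3, Slc16a3, Slc2a1 and Pfkfb3 lie highest among the members, at 0.82 to 1.00 on the immature axis.

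The wide members shared 1 order of the immature arrays, which was noticed after the values were seen and is given as a description. Replicates 3 and 4 both lay above replicates 1 and 2 in 20 of 31 members (64.5%), against 27.7% of all tested genes. The opposite order was found in 1 member, Slc2a6 (3.23%), against 35.7% of all genes. The gap between the lower of replicates 3 and 4 and the higher of replicates 1 and 2 was over 1 in 5 members, against 1.05% of all genes. It was 1.63 for Slc16a3, 1.44 for Slc2a3, 1.34 for Slc2a1, 1.08 for Pfkfb3 and 1.04 for Pfkl, followed by 0.99 for Hk1, 0.93 for Pfkm and 0.81 for Hk2. Among the 20 it was smallest for Ldha (0.01), Taldo1 (0.02), Eno1 (0.03), Gapdh (0.03) and Pkm (0.04), where the order rests on very small differences. In Slc2a1, Pfkl, Hk1 and Pgam1 all 4 LPS arrays fell within that gap, which was the case for 0.913% of all genes. Members on 1 array share that array's RNA and scaling and are not independent of each other. The summed neutrophil markers, at 9.54, 9.65, 9.62 and 9.79 on immature arrays 1 to 4, did not follow this order. The summed cell cycle markers, at 6.87, 6.95, 6.23 and 7.12, did not either. Nor did the summed markers of dendritic cells, macrophages and monocytes, T and NK cells, or mast cells and basophils. The brightest markers of a list weigh most in its sum, and single markers differed. Mpo, Elane, Prtn3, Ngp and S100a9 had replicates 3 and 4 above 1 and 2, while Ctsg, Ltf, Camp and S100a8 did not. Ccr2, Ly6c1 and Mertk had that order, while Csf1r, Adgre1 and Fcgr1 did not. Fcer1a had it, while Cpa3, Mcpt8 and Kit did not. Of the dendritic cell markers Ccr7 and Flt3 had it and the others did not. The summed erythroid markers, at -1.92, -1.88, -1.67 and -1.59, had replicates 3 and 4 above 1 and 2. Of 6 matched erythroid markers, 2 were tested and 3 were well above background on no array. Epor, at -3.88, -4.05, -2.93 and -3.50, had that order, while Hba-a1, at -3.06, -2.71, -3.04 and -2.66, did not. The summed B cell markers, at 1.48, 0.48, 0.20 and -0.40, had replicates 3 and 4 below 1 and 2. The part of these markers in the order was not tested.

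**Figure D3:**
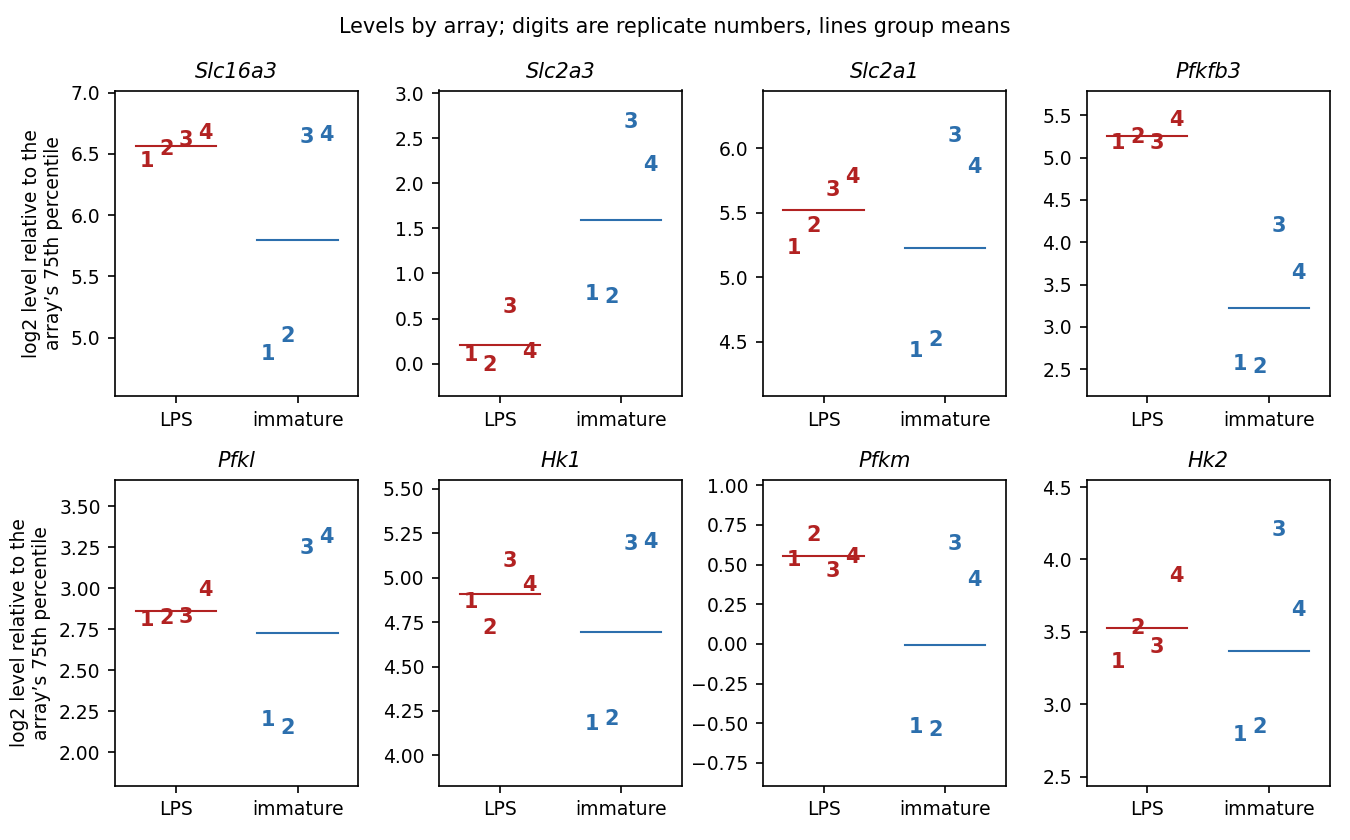
Level on each array, as log2 signal relative to the array's 75th percentile (vertical axis), for the 8 members with the widest immature spread, with LPS arrays on the left of each panel and immature arrays on the right. Digits are replicate numbers and lines are group means; immature replicates 1 and 2 form a low pair and 3 and 4 a high pair in every panel, 1.63 apart for Slc16a3.

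**Figure D4:**
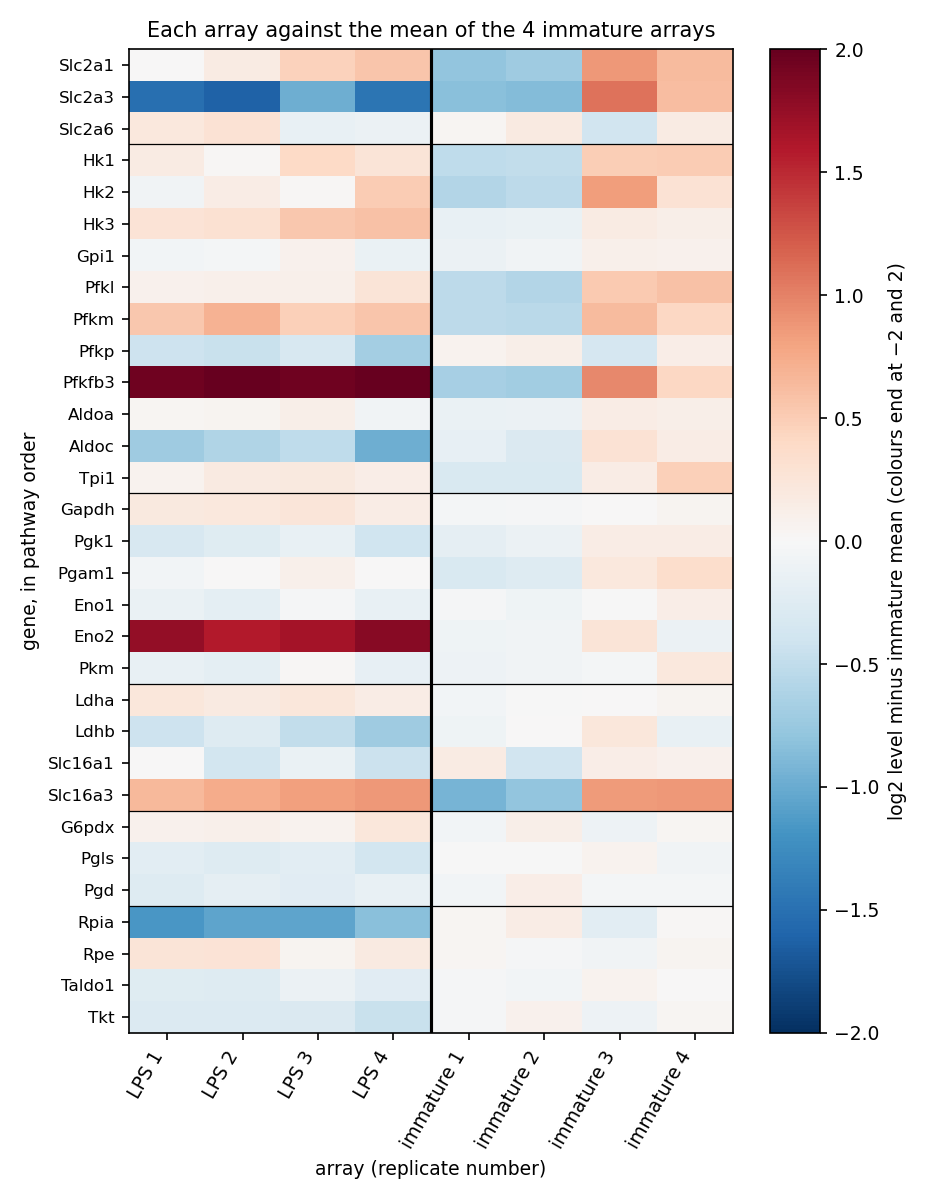
Level of each member (rows, in pathway order) on each array (columns, LPS 1 to 4 and then immature 1 to 4), as the log2 difference from the member's mean over the 4 immature arrays, with colours ending at -2 and 2. Immature replicates 3 and 4 are higher than 1 and 2 for Slc2a1, Slc2a3, Hk1, Hk2, Pfkl, Pfkm, Pfkfb3 and Slc16a3, and the pentose phosphate rows show no such split.

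The typical distance between arrays showed the same grouping over the members. Over the members, the median absolute difference in level was 0.07 to 0.16 between pairs of LPS arrays. It was 0.05 between immature replicates 1 and 2 and 0.14 between replicates 3 and 4, while the 4 differences across these pairs were 0.20 to 0.33. Over 176 bright probes with at least 5 spots, the scaled median absolute difference was 0.0961 between immature replicates 1 and 2 and 0.0916 to 0.220 between LPS pairs. Immature replicates 3 and 4 differed by 0.307 there, more than replicate 4 did from 1 (0.214) or from 2 (0.200). Replicate 3 differed by 0.417 from 1 and by 0.454 from 2, so over these probes 3 and 4 did not form a pair. Replicates 1 and 2 were counted as separate samples, as the labels give them, and whether they share a source was not tested. Averaged into 1 sample, they left 3 members called higher and 9 lower.

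Whether related isozymes or steps changed unequally was tested on the per-array difference of 12 pairs with an exact two-sided permutation test over the 8 arrays. The smallest p that 4 against 4 arrays allows is 0.0286, which 6 pairs reached. None passed 0.05 after Benjamini-Hochberg adjustment over the 12 pairs (adjusted p = 0.0571, exact test). With 6 of 12 pairs at that smallest p, the adjusted value could not be lower, so the adjusted test could not call these pairs. The difference of changes was 1.83 ± 0.12 for Eno2 minus Eno1 and 1.68 ± 0.15 for Slc2a1 minus Slc2a3. It was -0.74 ± 0.09 for Aldoc minus Aldoa, -0.66 ± 0.13 for Ldhb minus Ldha, -0.33 ± 0.04 for Pgd minus G6pdx and 0.43 ± 0.09 for Pfkm minus Pfkl. In these 6 pairs the LPS and immature arrays did not overlap, although Slc2a1, Pfkl and Pfkm each varied widely among immature arrays. Slc16a3 minus Slc16a1 gave 1.00 ± 0.48 (exact permutation p = 0.0857, adjusted 0.147). The remaining 5 pairs, of hexokinases, of Slc2a6 with Slc2a1 and of Pfkp with Pfkl, had differences of -0.60 to 0.21 and exact adjusted p-values of 0.343 to 0.743.

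**Figure D5:**
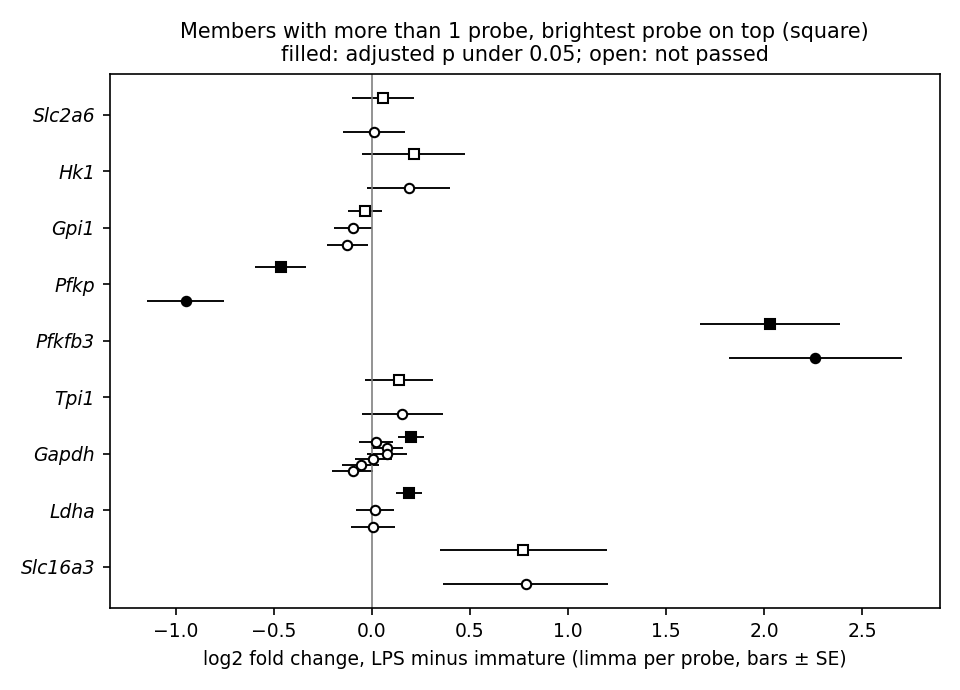
Log2 fold change, LPS minus immature (horizontal axis), of every matched probe of the 9 members with more than 1 such probe, with standard errors. The square is the brightest probe, used for the gene, and filled symbols passed the test. Both Pfkfb3 probes lie above 2 and both Pfkp probes below 0, while the Gapdh probes run from -0.10 to 0.20.

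Probe by probe, 6 of 47 probes were higher, 10 lower and 31 did not pass, against 26% and 23.7% of all 25942 probes tested. Of the 9 members with more than 1 probe, all probes of 8 lay on the same side of 0, the exception being Gapdh, and 7 had the same call on all probes, the exceptions being Gapdh and Ldha. Both Slc16a3 probes and both Hk1 probes showed the low and high pairs of immature arrays. The dimmer Ldha probes did not keep the order of its brightest probe, and immature replicate 3 was lowest on both, at 6.29 and 3.79.

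Genes next to these pathways moved in both directions. Of 11 other glycolytic isozymes tested, 2 rose and 3 fell, with Ldhd, a D-lactate dehydrogenase, up by 2.04 ± 0.22 (limma adjusted p = 0.000121). Ldhc, the testis lactate dehydrogenase, fell by 1.02 ± 0.18, and Adpgk, an ADP-dependent glucokinase, fell by 0.81 ± 0.16 (limma adjusted p = 0.00176 and 0.00272). Of 9 other enzymes of pentose phosphate and PRPP metabolism, 1 rose and 3 fell. Prps1, which turns ribose 5-phosphate into PRPP, fell by 0.82 ± 0.25 and the related Prps1l3 fell by 0.67 ± 0.15, while H6pd, the glucose 6-phosphate dehydrogenase of the endoplasmic reticulum, rose by 0.71 ± 0.19 (limma adjusted p = 0.0218, 0.00609 and 0.0122). Of 12 genes of pyruvate entry into mitochondria, 6 fell and 1 rose. Pdp2, a pyruvate dehydrogenase phosphatase, fell by 0.87 ± 0.14 and Pdk1, a kinase that inhibits that dehydrogenase, fell by 0.83 ± 0.26, while the kinase Pdk2 rose by 0.75 ± 0.20 (limma adjusted p = 0.00117, 0.0261 and 0.0111).

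Of 20 regulators of glycolytic genes, 11 rose, 3 fell and 6 did not pass. Hif1a, the oxygen-regulated factor that activates many glycolytic genes, read 3.55, 3.80, 3.57 and 3.97 on LPS arrays, against 2.65, 2.66, 2.71 and 2.50 on immature arrays. It rose by 1.09 ± 0.11 (limma adjusted p = 8.71e-05), and its immature arrays were tight, with a standard deviation of 0.09. Myc, another activator of glycolytic genes, read -1.83, -1.69, -0.54 and -0.51 on LPS arrays, against 2.20, 2.07, 0.70 and 1.80 on immature arrays. The groups did not overlap, and Myc fell by 2.83 ± 0.42 (limma adjusted p = 0.000697). Among 11 other sources and users of NADPH, 4 rose and 2 fell, with Me1, the cytosolic malic enzyme, up by 1.51 ± 0.25 and the NADPH oxidase subunit Ncf1 up by 1.02 ± 0.10 while the mitochondrial Idh2 fell by 1.20 ± 0.08 (limma adjusted p = 0.00117, 7.64e-05 and 1.1e-05). Of 4 gluconeogenic genes, 1 fell, the glucose 6-phosphatase G6pc3, by 0.64 ± 0.10 (limma adjusted p = 0.00103), and 3 did not pass.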

How the data were processed

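Total RNA of 8 samples was labelled with Cy3 and hybridised to one-colour Agilent arrays, per the labels. The authors read them with Agilent Feature Extraction 11.0.1.1, per the submitters' processing notes. The deposited values used are processed signals, an intensity with background subtracted and not scaled between arrays, with other columns of 0 or 1 flags, per the file headers. No array held saturated spots outside the controls.

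The members, lists and tests were chosen with earlier results of these data known. Outlier-flagged spots were dropped, spots of a probe averaged, log2 taken and the 75th percentile of the 59305 non-control spots subtracted. Probes were named by transcript accession through a RefSeq gene table. Each gene was taken by its brightest probe and entered the test if every array of the LPS group, or every one of the immature group, called it well above background. Groups were compared with limma 3.58.1 in R 4.3.3 (statmod 1.5.0, version 1.17.8 of data.table), two-sided, adjusted by Benjamini-Hochberg over all genes and called at 0.05. All members were named whatever their result. Each further pathway list contributed up to 3 called genes, 2 from the direction with more calls and 1 from the opposite one, by size of change, and marker lists gave their largest called change. Of the genes this names, 1 is not reported here. The fit was tested on simulated data with independent arrays and the same spread in both groups. Unequal spread, such as that of the immature arrays, was not covered by it. The number of arrays limits the precision, with a median standard error of 0.12. Figures were drawn with matplotlib 3.10.9 in Python 3.11.15. Alternatives covered scaling, background, dim probes, probe choice, array weights, a replicate block and leaving out each array. For normexp the median spot intensities were used, because the deposited values hold the median and not the mean. Same-numbered samples correlated over 0.1 in 1 of 4 pairs, so the numbers were not taken to pair samples.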

Additional observations from a re-analysis of the deposited data

Results flagged for a closer look

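For each member and group of 4 arrays, the gap between the most extreme array and its nearest neighbour was divided by the range of the group. Of 62 groups examined, 6 had a ratio above Dixon's 95% critical value for 4 samples, and chance flags about 1 in 20 groups. Pfkl had LPS replicate 4 at 2.99 beside 2.81 to 2.82 on the other LPS arrays (ratio 0.9103), and Tkt had LPS replicate 4 at 6.80 beside 6.96 to 6.98 (ratio 0.8958). Pgd had immature replicate 2 at 6.24 beside 6.05 to 6.07 on the other immature arrays (ratio 0.8754). Pfkp had immature replicate 3 at 3.38 beside 3.78 to 3.84 (ratio 0.8514), and Eno2 had immature replicate 3 at -1.88 beside -2.26 to -2.20 (ratio 0.8436). Slc16a1 had immature replicate 2 at -3.57 beside -3.11 to -3.02 (ratio 0.837). None of these ratios was in the immature arrays of the 8 members with the widest immature spread. Those arrays formed a low and a high pair, so the most extreme array had a near neighbour and a high ratio could not arise.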

How the results depend on the processing

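Of the 31 members, 12 kept their side of the threshold under all 20 alternatives: 2 higher (Pfkfb3 and Eno2), 6 lower (Pfkp, Aldoc, Ldhb, Pgls, Rpia and Tkt) and 4 that did not pass. Pfkfb3 ranged from 1.80 to 2.55 and Rpia from -1.24 to -0.98. A called member lost its call in some alternative for 6 genes, and 13 gained one. The members called higher, 5 in the report, numbered 2 with scaling to the array median, with no scaling or with spike-ins, 3 with the 75th percentile of detected probes, with the mean of all probes, with the replicate block or with immature replicates 1 and 2 averaged, and 13 with array weights, which gave immature replicate 3 a weight of 0.166 and called 5043 genes higher and 4175 lower. Leaving out 1 array gave 3 to 6 higher and 6 to 9 lower, against 9 lower in the report. With no scaling 14 members were called lower, Gapdh reversed to -0.00804 and Ldha to -0.0166. Scaling to the array median or not at all moved the median fold change of all genes by -0.17 and -0.21, and no filter moved it by 0.20. Over all genes 3988 were called higher and 3136 lower (56.0% higher), against 2615 and 4169 with the array median (38.5%), 2428 and 4445 with no scaling (35.3%) and 7628 and 3131 without a filter on dim probes (70.9%), where 20887 genes were tested. Without 1 array in turn there were 3429 to 4282 higher and 2734 to 3543 lower. The replicate block gave 3627 and 2979 genes, and 7 members lower. The spike-in scaling and normexp were chosen after seeing the data.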

Other observations

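Genes outside the member list also split the immature arrays, and those given here were chosen after their values were seen. Egln3, a prolyl hydroxylase that marks hypoxia-inducible factors for degradation and is itself a target of them, read 2.79, 2.89, 3.69 and 3.27 on LPS arrays and 0.52, 0.82, 5.08 and 4.48 on immature arrays. All LPS arrays lay between the low and the high pair of immature arrays, and the log2 fold change was 0.43 ± 1.03 (limma adjusted p = 0.742). Gys1, the glycogen synthase of muscle and other tissues, read 3.33, 3.29, 3.58 and 3.47 on LPS arrays and 1.65, 1.59, 3.87 and 3.70 on immature arrays. Pgm1, which links glucose 6-phosphate to glycogen, read 5.76, 5.86, 6.04 and 5.83 on LPS arrays and 4.57, 4.45, 6.12 and 5.97 on immature arrays. Egln1, a related prolyl hydroxylase, had a standard deviation of 0.12 over LPS arrays and 0.92 over immature arrays, where it read -1.47, -1.56, 0.29 and -0.22. Pdk1, described above as lower, read 0.66, 0.75, 0.63 and 0.67 on LPS arrays and 1.05, 0.93, 1.95 and 2.11 on immature arrays. In each of these genes immature replicates 3 and 4 were the high pair. Other genes of the pathway lists had the opposite order. Txnrd1 read 4.77, 4.96, 3.63 and 3.99 on immature arrays 1 to 4, and Pdp2 read 0.98, 0.90, 0.35 and 0.60. Over all tested genes, replicates 3 and 4 both lay above 1 and 2 in 27.7% and below them in 35.7%.

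Of 13 genes of glycogen metabolism tested, 3 rose, 2 fell and 8 did not pass. Phka1, a regulatory subunit of phosphorylase kinase, rose by 0.95 ± 0.16 and Gyg, the glycogenin that primes glycogen, rose by 0.92 ± 0.17, while Pgm2l1, a glucose 1,6-bisphosphate synthase, fell by 1.59 ± 0.18 (limma adjusted p = 0.00138, 0.00182 and 0.000156). The largest called change in each of 5 marker lists was that of Mpo of neutrophil granules at -4.66 ± 0.42, the monocyte chemokine receptor Ccr2 at -3.64 ± 0.34, the cyclin Ccnb2 at -2.90 ± 0.49, the basophil protease Mcpt8 at -2.14 ± 0.41 and the dendritic cell growth factor receptor Flt3 at 2.65 ± 0.18 (limma adjusted p of 1.22e-05 to 0.00247). Single markers do not stand for their lists. Of 6 macrophage and monocyte markers 2 rose, Ly6c1 by 1.98 and Adgre1 by 0.93, 1 fell and 3 did not pass, and of 4 mast cell and basophil markers 3 fell and 1 rose, Kit by 1.93. Of erythroid markers 1 of 2 tested fell, of T and NK cell markers 1 of 3 fell, and neither of 2 B cell markers passed.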
